A study of Mus musculus with 2 samples.

Results

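The genes described here are those in which 1 transcript isoform took a very different share of the gene's RNA in the 2 libraries of the study. For each gene symbol the values of its isoforms were summed in each library, and each isoform was expressed as a share of that sum. A gene was a member when it had at least 2 isoforms, a sum of at least 5 FPKM in both libraries, and an isoform whose share differed by at least 25 percentage points. FPKM is a fragment count scaled for transcript length and for the fragments sequenced. There were 142 members, which is 5.68% of the 2498 genes that met the first 2 conditions (eligible genes below), out of 23997 gene symbols in all. The members hold 496 of the 7349 isoforms of the eligible genes. Members were chosen by the share differences themselves, measured in these 2 libraries, so those differences are given as a description with no test.

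Polyadenylated RNA was sequenced from mouse medullary thymic epithelial cells with high surface MHC class II, sorted from the thymus of C57BL/6 mice. One library is labelled WT and the other Aire-KO (genotype Aire-/-), and the cells of each came from pooled mice. The size of the pools, the age and sex of the animals and the mutated allele are not stated in the labels. No difference has a replicate check, and a level difference between these bulk libraries cannot tell fewer cells of a type from less RNA per cell. Below, the first value of a pair is from WT and the second from Aire-KO, as labelled, and higher and lower refer to the second. Aire itself stood at 220.6 and 640.2 FPKM, so the Aire-KO label is not matched by a lower level, though a value for the whole gene does not isolate a deleted part. All 13 medullary epithelial markers examined were measured, with 1 of them, Aire, at least 2-fold higher. Markers of dendritic cells and macrophages, of which 6 of 8 measured genes were at least 2-fold lower, summed to 782.7 and 477.6 FPKM. Thymocyte markers (2 of 9 measured lower, 1 higher) summed to 55.1 and 72.3 FPKM. B cell markers (1 of 5 lower, 1 higher) summed to 42.4 and 41.7 FPKM. Fibroblast and endothelial markers (2 of 6 measured lower) summed to 36.8 and 27.5 FPKM, and 6 cortical epithelial markers, none past 2-fold, summed to 628 and 914.3 FPKM.

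One gene can give several transcripts in different ways. A different promoter gives a different first exon, alternative splicing includes or skips internal exons or moves their borders, and different last exons or polyadenylation sites change the 3′ end. These choices can change the protein, or leave it as it is and change only the untranslated ends. Medullary thymic epithelial cells are known for transcribing a very wide range of genes and transcript forms, which they display to developing T cells, and Aire is the nuclear factor needed for a large part of the repertoire that is ectopic. In what follows, the gaining isoform of a gene is the one whose share was higher by the most in the library labelled Aire-KO, and the losing isoform the one whose share was lower by the most. Isoforms carry RefSeq accessions, where NM marks a transcript annotated as coding and NR one annotated as non-coding.

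In most members the shift was moderate. The largest share difference of a gene lay between 25 and 30 points in 57 members, between 30 and 40 points in 47, between 40 and 50 points in 21 and at 50 points or more in 17. Its median was 31.9 points over the members and 5.57 points over all eligible genes. The most abundant isoform was a different one in the 2 libraries in 77 members (54.2%), against 250 eligible genes (10.01%). In 32 members (22.5%, against 14.7% of eligible genes) the gaining isoform made up under 1% of its gene in WT. In 16 (11.3%, against 11.1%) the losing isoform made up under 1% in Aire-KO, and 6 (4.23%, against 3.08%) did both. The gaining isoform was listed at exactly 0 in WT in 9 members (6.34%, against 9.81%), and the losing isoform in Aire-KO in 4 (2.82%, against 7.21%). An estimate listed at 0 is not a measured absence. The eligible genes include genes with no share difference, whose isoforms at 0 in both libraries can count here. Their percentages in these comparisons are therefore not like for like.

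Shifts were most frequent among genes of low level and among genes with many annotated isoforms. Of eligible genes whose lower value was 5 to 10 FPKM, 77 of 707 (10.9%) were members. The share was 40 of 797 (5.02%) from 10 to 20 FPKM, 19 of 635 (2.99%) from 20 to 50 FPKM and 6 of 359 (1.67%) at 50 FPKM or more. By isoform number, 48 of 1313 genes with 2 isoforms (3.66%) were members, 35 of 612 with 3 (5.72%), 32 of 300 with 4 (10.7%) and 27 of 273 with 5 or more (9.89%). The median level was 12.1 and 10.7 FPKM over the members and 17.4 and 19.4 FPKM over the eligible genes. From the smallest steps between low values, the libraries hold roughly 46200000 and 55700000 fragments. The same fit took 120 bases off each transcript length in WT and 240 in Aire-KO, which weighs most on short transcripts. Why the fit differed between the libraries was not tested. On that scale the 135 members with a length for every isoform rest on 132 to 22775 fragments (median 1719) in the library labelled WT and on 144 to 24636 (median 1982) in the library labelled Aire-KO. These fragments cover the whole gene, and those that touch the bases in which a pair of isoforms differs are fewer.

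**Figure D1:**
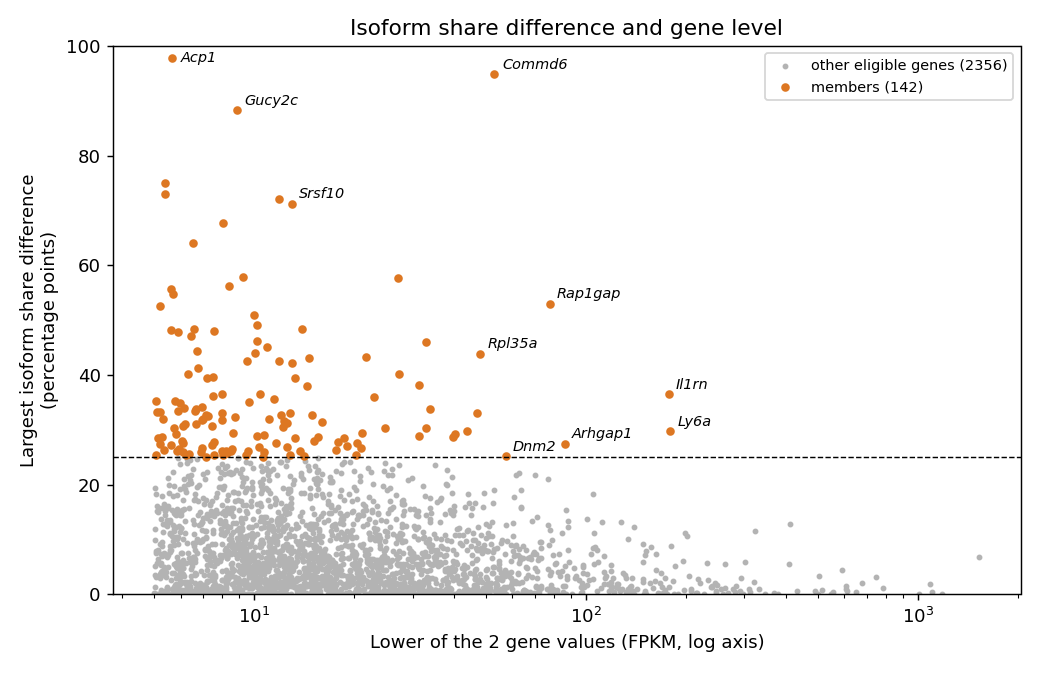
Each point is an eligible gene, with the lower of its values in the 2 libraries on the horizontal axis (FPKM, log axis) and its largest isoform share difference on the vertical axis (percentage points). Orange points at or above the dashed line at 25 points are the 142 members, which crowd at the low end of the level axis, while Commd6, Rap1gap, Il1rn and Ly6a lie apart at higher levels.

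The largest shift was in Acp1, the low molecular weight protein tyrosine phosphatase (chr12:30893326-30911619, GRCm38). The gene stood at 5.63 and 8.79 FPKM, on about 766 and 1234 fragments. Isoform NM_001110239 made up 0.723% and 98.5% of it, and NM_021330 made up 99.3% and 1.47%. In each library the estimate therefore assigned nearly all of the gene to 1 of the pair, and not to the same one. Both isoforms have a coding sequence of 474 bases with the same start and stop codon, and they differ in which of 2 neighbouring exons fills coding bases 118 to 231. The exons are 114 bases each and 64 aligned positions (56.1%) carry the same base. They are printed here because this exchange is the whole coding difference of the pair, with the exchanged exon in capitals and 12 bases of the flanking coding sequence in lower case.
Acp1, gaining isoform NM_001110239, chr12:30904718-30904831, minus strand: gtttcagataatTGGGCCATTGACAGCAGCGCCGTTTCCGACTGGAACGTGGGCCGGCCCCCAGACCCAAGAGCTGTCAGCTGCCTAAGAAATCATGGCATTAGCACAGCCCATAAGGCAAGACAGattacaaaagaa
Acp1, losing isoform NM_021330, chr12:30904870-30904983, minus strand: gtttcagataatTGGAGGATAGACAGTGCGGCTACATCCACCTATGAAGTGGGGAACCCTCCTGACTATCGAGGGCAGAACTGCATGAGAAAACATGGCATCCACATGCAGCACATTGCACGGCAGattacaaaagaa

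Gria3, a subunit of the AMPA class of glutamate receptors, has the same kind of exchange in its coding sequence, and was singled out for this after its values were seen. AMPA receptor genes are known for a pair of mutually exclusive exons, called flip and flop, near the last membrane segment. Gria3 (chrX:41400819-41678601, GRCm38) stood at 6.16 and 11.4 FPKM, with NM_016886 at 36.5% and 70.4% and NM_001290451 at 61.2% and 28.7%. In FPKM the gaining isoform was at 2.25 and 8.04 and the losing one at 3.77 and 3.28, so the gain lay in 1 isoform while the other stayed close to its level. The linked transcripts also have different last exons, with ends 6137 bp apart. In all, 2640 exonic bases are in the gaining transcript only, so most of the differing sequence lies outside the exchanged exon. The exchanged exons, 115 bases each, fill coding bases 2307 to 2421 of 2664 and share 83 positions (72.2%). They are shown with the exchanged exon in capitals.
Gria3, gaining isoform NM_016886, chrX:41669501-41669615, plus strand: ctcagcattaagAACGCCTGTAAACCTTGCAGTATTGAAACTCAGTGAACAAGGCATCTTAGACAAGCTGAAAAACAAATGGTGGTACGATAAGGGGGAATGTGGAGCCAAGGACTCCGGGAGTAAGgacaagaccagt
Gria3, losing isoform NM_001290451, chrX:41654810-41654924, plus strand: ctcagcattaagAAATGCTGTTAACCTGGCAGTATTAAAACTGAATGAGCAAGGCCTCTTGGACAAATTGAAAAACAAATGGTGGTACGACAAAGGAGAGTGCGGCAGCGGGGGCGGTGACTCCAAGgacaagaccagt

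Commd6 and Gucy2c came next, both with a losing isoform that was the only one listed above 0 in the library labelled WT. Commd6, a small COMM domain protein linked to ubiquitin ligases and endosomal sorting, stood at 52.6 and 59.1 FPKM. Its isoform NM_001033132 was listed at 0 and 56.0 FPKM (0% and 94.8% of the gene), and NM_001168592 at 52.6 and 3.06 FPKM (100% and 5.18%). Gucy2c, the guanylate cyclase receptor of the intestinal epithelium, stood at 10.2 and 8.85 FPKM, with NM_145067 at 0% and 88.3% and NM_001127318 at 100% and 11.7%. In both genes the summed FPKM differed little while the isoforms exchanged places. Commd6 rests on about 970 and 2700 fragments, and its linked transcripts have 1090 bases (gaining) and 519 (losing), so its similar FPKM depends on which isoform the fragments were assigned to. The Commd6 pair differs within the coding sequence by 12 bases that only the gaining isoform holds, and the Gucy2c pair by 72 bases that only the losing isoform holds. Start and stop codons are the same within each pair. The capitals mark these bases in the isoform that has them.
Commd6, gaining isoform NM_001033132, chr14:101640288-101640299, minus strand: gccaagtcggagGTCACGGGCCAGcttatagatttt
Gucy2c, losing isoform NM_001127318, chr6:136728331-136728402, minus strand: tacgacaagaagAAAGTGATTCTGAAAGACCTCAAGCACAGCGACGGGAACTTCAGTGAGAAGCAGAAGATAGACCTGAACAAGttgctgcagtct

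**Figure D2:**
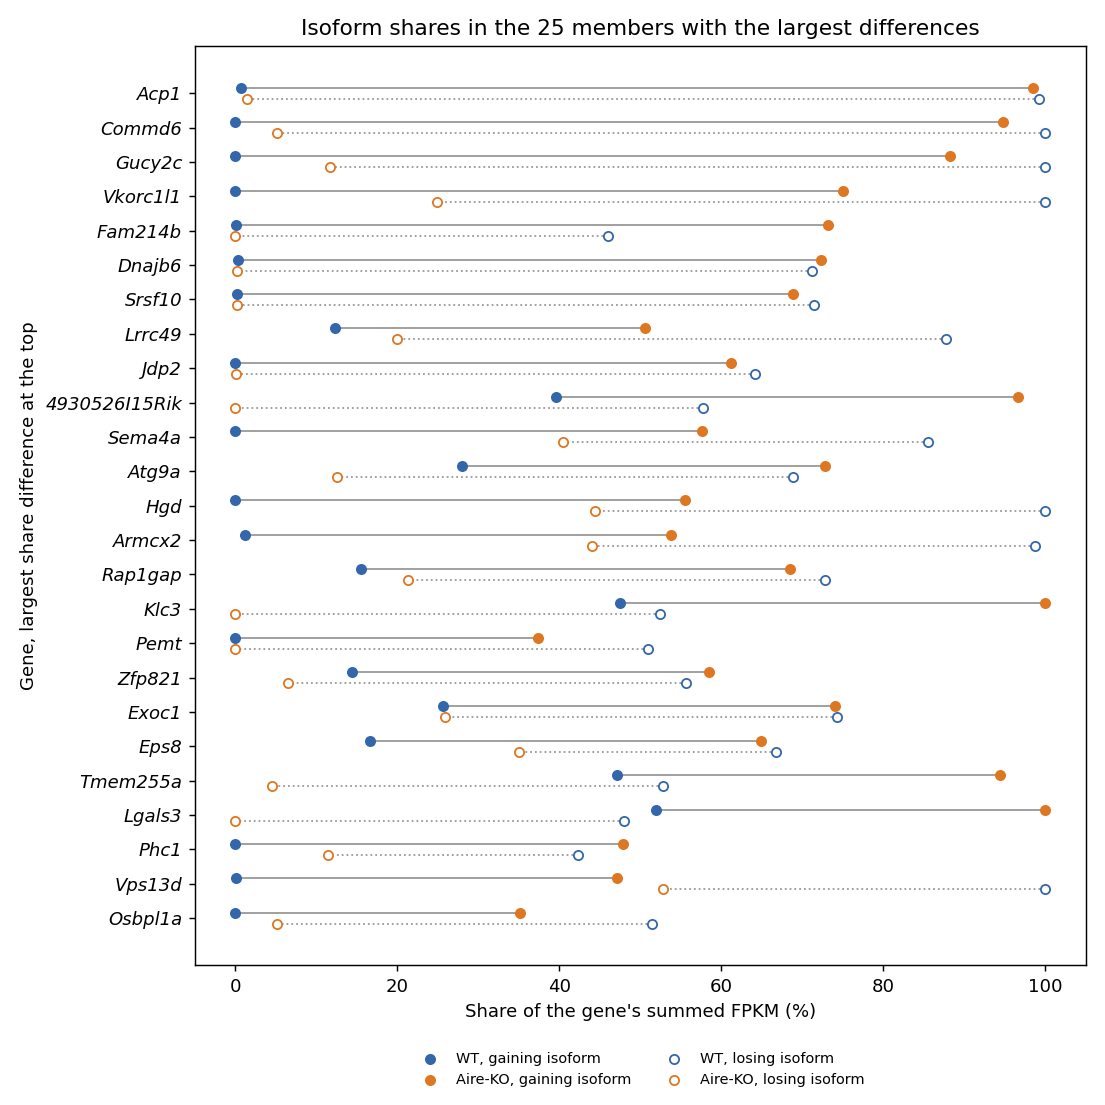
Isoform shares (percent of the gene's summed FPKM, horizontal axis) in the 25 members with the largest differences, ordered with the largest at the top. Filled circles joined by solid lines are the gaining isoform, open circles joined by dotted lines the losing one, blue for the library labelled WT and orange for the library labelled Aire-KO. In Acp1, Commd6 and Gucy2c the lines span nearly the whole axis, from 0.723% to 98.5% for the gaining isoform of Acp1.

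The other members above 50 points were Vkorc1l1, Fam214b, Dnajb6, Srsf10, Lrrc49, Jdp2, 4930526I15Rik, Sema4a, Atg9a, Hgd, Armcx2, Rap1gap, Klc3 and Pemt. Vkorc1l1, a vitamin K epoxide reductase family enzyme, stood at 5.40 and 7.68 FPKM, but on about 132 and 1510 fragments. The gaining isoform holds 4269 exonic bases that the losing one lacks, so equal FPKM means unequal fragments. NM_001001327 made up 0.0214% and 75.1% of it. Dnajb6, a J-domain co-chaperone, stood at 11.9 and 13.7 FPKM, with NM_011847 at 0.286% and 72.4% and NM_001127367 at 71.2% and 0.222%. In both Vkorc1l1 and Dnajb6 an isoform with an estimate under 1% in WT had the largest share in Aire-KO. Jdp2, a repressor of AP-1 transcription factors, was at 14.7 and 6.56 FPKM. Its losing isoform NM_001205053 was at 9.45 and 0.00252 FPKM and its gaining isoform NM_001205052 at 0.00422 and 4.01 FPKM. The exchanged Jdp2 pair differs in the first exon with the same coding sequence. Sema4a, a membrane semaphorin that acts on T cells, was at 47.4 and 27.1 FPKM. NM_001163489 made up 0.00129% and 57.6% of Sema4a, and NM_013658 made up 85.5% and 40.5%. The Sema4a isoforms start 5443 bp apart and encode the same protein. Pemt, which makes phosphatidylcholine from phosphatidylethanolamine, was at 12.4 and 10.02 FPKM. Its gaining isoform NM_001290012 was at 0% and 37.4%, and the losing NM_001290013 at 51.0% and 0.00252%. The start codon differs, and 111 coding bases of the losing isoform are not coding in the gaining one. The linked Pemt transcripts differ by only 8 exonic bases in all, held by the losing one.

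A member could shift because its gaining isoform was higher, because its losing isoform was lower, or both. A 2-fold rule was applied to the log2 ratio of the Aire-KO to the WT value after 0.1 FPKM was added to each. By it, 10.5% were lower and 14.7% higher among isoforms of eligible genes whose mean level was at least 0.5 FPKM. In the members both happened in 48 genes (33.8%), against 3.80% of all eligible genes. In 44 members (31.0%, against 23.5%) only the gaining isoform passed 2-fold, and in 40 (28.2%, against 14.1%) only the losing isoform did. Both were lower in 4 (2.82%, against 2.48%), both were higher in none (against 2.40%), and neither passed in 6 (4.23%, against 53.5%). The rule used the same values, so nothing is read from these shares. Rpl35a, a protein of the large ribosomal subunit, is an example of a gain alone. Its isoform NM_001130485 was at 3.53 and 42.4 FPKM while NM_001130484 stayed at 32.2 and 32.3 FPKM. Prmt2, an arginine methyltransferase, showed both. It held NM_133182 at 8.33 and 17.8 FPKM, and its other isoform NM_001077638 was at 6.30 FPKM and listed at 0. Acot7, an acyl-CoA thioesterase, is an example of a loss alone. Its NM_133348 was at 25.3 and 25.4 FPKM and its NM_001146057 at 22.8 and 4.08 FPKM.

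**Figure D3:**
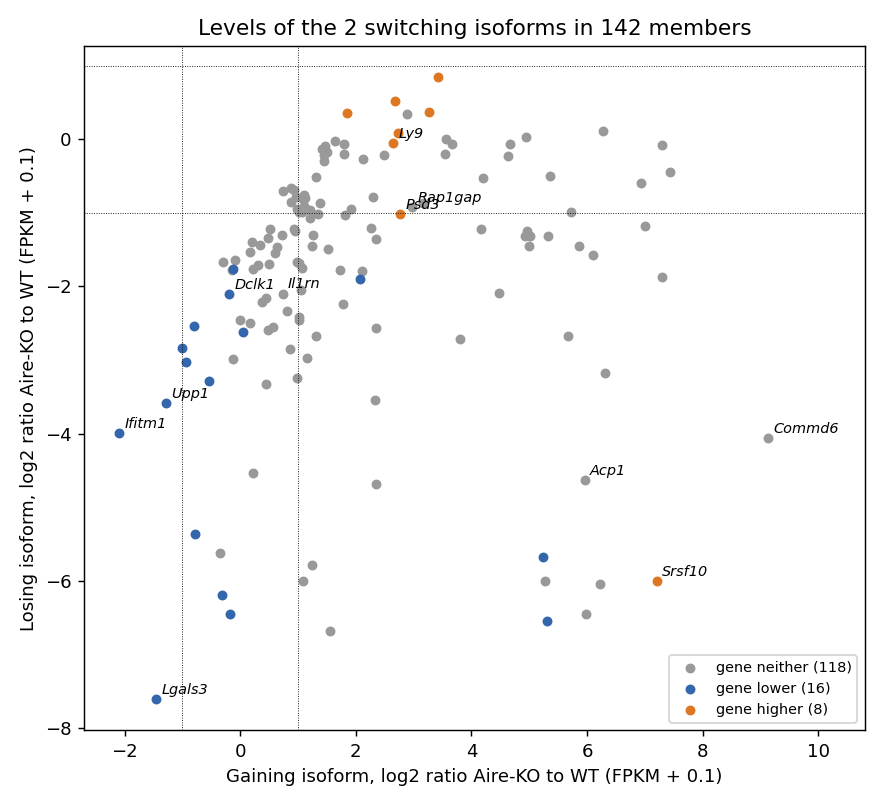
Each point is a member, with the log2 ratio of its gaining isoform (library labelled Aire-KO to library labelled WT, 0.1 FPKM added) on the horizontal axis and that of its losing isoform on the vertical axis. Dotted lines mark 2-fold, and colours mark whether the whole gene was at least 2-fold lower (16), higher (8) or neither (118). Commd6, Acp1 and Srsf10 lie at the lower right, with 1 isoform higher and the other lower, and Lgals3, Upp1 and Ifitm1 at the lower left, where the gaining isoform was lower too.

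As whole genes, 16 members (11.3%) were at least 2-fold lower and 8 (5.63%) at least 2-fold higher, against 4.64% and 6.12% of the eligible genes. The other 118 were within 2-fold. The median log2 ratio was 0.01 over the members and 0.18 over the eligible genes, and with that median taken off every gene 21 members were lower and 5 higher. The 4 genes in which both isoforms were lower were among the lower ones. Ifitm1, an interferon-induced membrane protein, had 72.4 and 7.49 FPKM (log2 ratio -3.26). Upp1, uridine phosphorylase, was at 39.6 and 5.21 FPKM. Lgals3, the carbohydrate-binding protein galectin-3, was at 40.3 and 7.58 FPKM. In each of these 3 genes the share shift came with less of both isoforms, and by unequal amounts. For Lgals3 the losing isoform NM_010705 was at 19.3 FPKM and listed at 0, and NM_001145953 was at 20.95 and 7.58 FPKM. The other lower members were Fam214b, Jdp2, Klc3, Htatip2, Dhx32, Mettl20, Rnf128, Ly6a, Chdh, Acpp, Dclk1, Grhl1 and Entpd5, with log2 ratios from -1.72 in Ly6a to -1.01 in Fam214b.

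Among the 8 higher members, Psd3, an exchange factor for the small GTPase Arf6, had 7.98 and 36.2 FPKM (log2 ratio 2.17). Its isoform NM_027626 accounted for the difference, at 4.98 and 34.6 FPKM (62.5% and 95.6%), while NM_177698 was at 2.09 and 0.979 FPKM. The pair starts 156279 bp apart, and the gaining isoform has a coding sequence of 1128 bases against 3012 in the losing one. Ly9, a SLAM family receptor of lymphocytes, was at 14.4 and 51.6 FPKM, with NM_001277968 at 6.93 and 43.9 FPKM and NM_008534 at 7.47 and 7.19 FPKM. The gaining Ly9 isoform lacks 330 coding bases of the losing one. Thymocyte markers (2 of 9 measured lower, 1 higher, none at 0 in both libraries) summed to 55.1 and 72.3 FPKM, and the part of lymphocyte RNA in the Ly9 values was not tested. Fgf13, an intracellular fibroblast growth factor homologue, was at 8.02 and 24.4 FPKM. Its isoform NM_010200, at 31.2% and 67.8%, starts 31728 bp from NM_001290415, at 57.4% and 27.1%, and 187 coding bases of the first and 28 of the second are not shared. The rest were Srsf10 and Larp4, which bind RNA, Cdc14b, a dual-specificity phosphatase, Tpx2, a spindle assembly factor, and Sema6d, a semaphorin, with log2 ratios from 1.07 in Srsf10 to 1.62 in Sema6d.

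The transcripts that exchanged shares were nearly all annotated as coding. Both isoforms of the pair had an NM accession in 130 members (91.5%), close to the 91.3% of eligible genes. A non-coding accession was part of the pair in 12 members (8.45%), against 8.73% of eligible genes. In 7 of these a coding isoform gained and a non-coding one lost, namely Osbpl1a, Cxcl11, Angel2, Fance, Arhgap1, Kctd17 and 4921524J17Rik. In Hgd and Hhatl the non-coding isoform gained, and in 2010204K13Rik, 4930526I15Rik and 5830428M24Rik both were non-coding. Cxcl11, named for an interferon-induced chemokine of the CXCR3 receptor, stood at 32.9 and 44.7 FPKM. Its isoform NM_019494, coding by its prefix, was at 0.0597% and 46.1%, and NR_038116 at 99.9% and 53.9%. In the library labelled WT nearly all of Cxcl11 was thus assigned to the transcript with the non-coding prefix. RefSeq classes the gene itself as a transcribed pseudogene, so the NM prefix does not settle that this RNA is coding. The neighbouring gene Art3, which shares this region, stood at 12.8 and 6.65 FPKM, and how reads were divided there was not tested. Hgd, homogentisate dioxygenase of tyrosine breakdown in liver, was at 6.35 and 5.63 FPKM. Its NR_027778 was at 0.00288% and 55.6% and the coding NM_013547 at 100% and 44.4%.

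Arhgap1, a GTPase-activating protein of Cdc42, is the most abundant member with a non-coding isoform in the pair, at 86.3 and 156 FPKM. NR_027372 stayed its leading isoform at 72.0% and 50.6%, and the coding NM_001145902 was at 8.80% and 36.2%. Fance, a subunit of the Fanconi anaemia core complex, was at 8.001 and 8.013 FPKM. Its NR_028297, at 33.2% and 5.03%, is linked to a transcript that GENCODE classes as a target of nonsense-mediated decay, the pathway that removes transcripts with an early stop codon. Fance was the only one of the 12 whose linked transcript carried that class. For Angel2, Arhgap1, Hgd, Hhatl, Kctd17 and Osbpl1a, GENCODE classes the transcript linked to the NR accession as protein coding, so the 2 annotations differ on those isoforms.

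How the paired isoforms differ was read from GENCODE release M21, which links both accessions to 2 different transcripts in 112 of the 142 members (78.9%) and in 2006 of the 2498 eligible genes (80.3%). In another 25 members both accessions link to the same transcript. Since the linked members are under 80% of the set, a check over the whole set is void, and the counts describe these 112 pairs only. A different first exon was the most frequent of the differences counted, in 59 pairs (52.7%), against 643 of the eligible pairs (32.1%). Members also had more annotated isoforms (median 3, against 2), and the part of that in this contrast was not tested. With all 142 members as denominator, at least 59 (41.5%) differed there, against at least 25.7% of eligible genes. Both are minimums, because unlinked pairs were not read, so they cannot be ranked. Internal exons differed in 44 pairs (39.3%, against 53.7%), and last exons in 6 (5.36%, against 13.1%). First and last exons counted as different only where they did not overlap, so ends that moved within a shared last exon were left out. The Lpgat1 and Vkorc1l1 pairs end 4278 and 4113 bp apart and still count as sharing the last exon. In 53 pairs (47.3%, against 23.7%) only a first exon difference was counted, and in 38 (33.9%, against 45.4%) only an internal one. Internal differences were counted only between the terminal exons of both isoforms. Exons that lie between 2 distant starts or ends were left out, so the internal counts are minimums, most of all for such pairs. The Psd3 pair, counted under first exon alone, has 8 exon junctions that only its losing isoform holds. In 10 pairs (8.93%, against 11.9%) only the outer or inner borders of the terminal exons, or the coding region within them, differed. Where the first exons differed, the annotated starts were a median of 6253 bp apart in the members and 3061 bp in the eligible genes.

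Many of these exchanges leave the protein as it is. The coding sequence was the same in 39 of the 112 pairs (34.8%, against 24.2% of eligible pairs) and different in 72 (64.3%, against 73.5%). Among pairs with different first exons, 28 of 59 (47.5%) encoded the same protein, against 38.4% of such eligible pairs. Examples are Eps8, Klc3, Phc1, Dhx32, Arhgef1, Wnt11, Mapkap1, Fam110a and Tmem248. Osbpl1a and Hhatl are also counted here by their GENCODE links, though RefSeq annotates an isoform of each pair as non-coding. Among the 38 pairs with only an internal difference counted, 33 (86.8%) differed in coding sequence, close to the 85.8% of such eligible pairs. The start codon differed in 37 of 111 coding pairs (33.3%, against 452 of 1961 eligible pairs), and the stop codon in 9 (8.11%, against 22.5%). Among these pairs, different first exons and start codons thus outnumbered different last exons and stop codons. The same order held among the eligible pairs. Ends that moved within a shared last exon were not counted, so the 5′ and 3′ sides as wholes are not compared. In the 72 pairs with different coding sequences, the gaining isoform had the longer one in 37 (51.4%, against 47.6% of eligible pairs), the shorter in 33 (45.8%, against 50.8%) and an equal one in 2 (2.78%, against 1.63%). In 15 of the 112 pairs (13.4%, against 12.1%) the isoforms differ by 100 exonic bases or fewer.

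**Figure D4:**
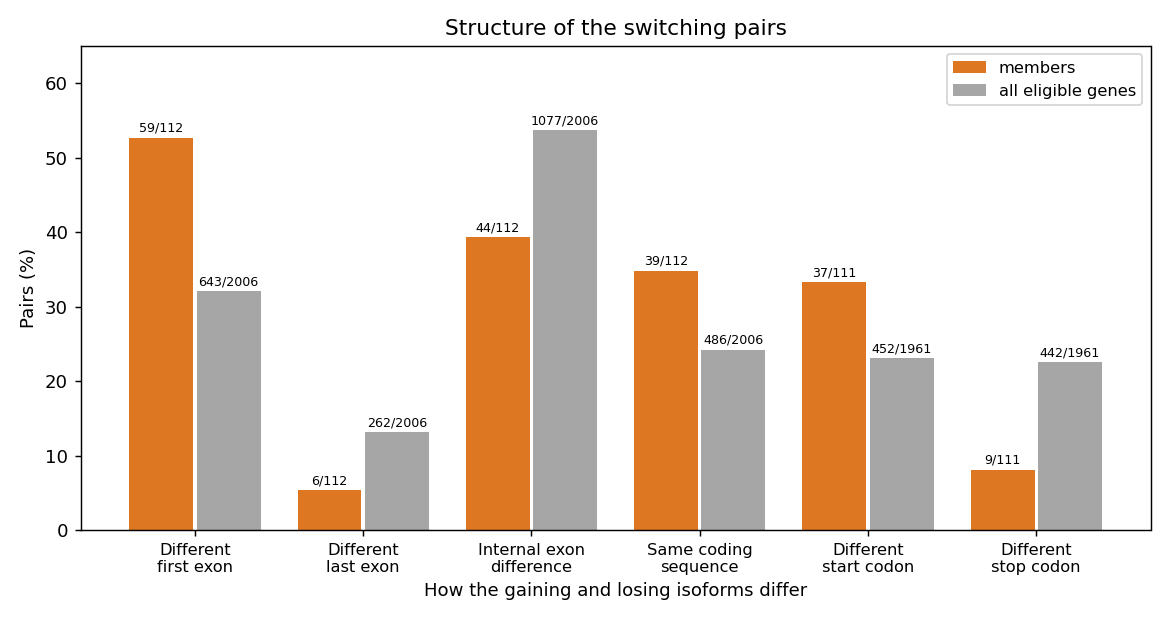
Percentage of pairs of gaining and losing isoforms (vertical axis) with each kind of difference, in members (orange) and in all eligible genes (grey), with the number of pairs above each bar. Different first exons, equal coding sequences and different start codons took a larger share in the members (52.7%, 34.8% and 33.3%) than in the eligible genes, and internal, last exon and stop codon differences a smaller one. First and last exons counted as different only where they did not overlap. Internal differences were counted only between the terminal exons of both isoforms.

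**Figure D5:**
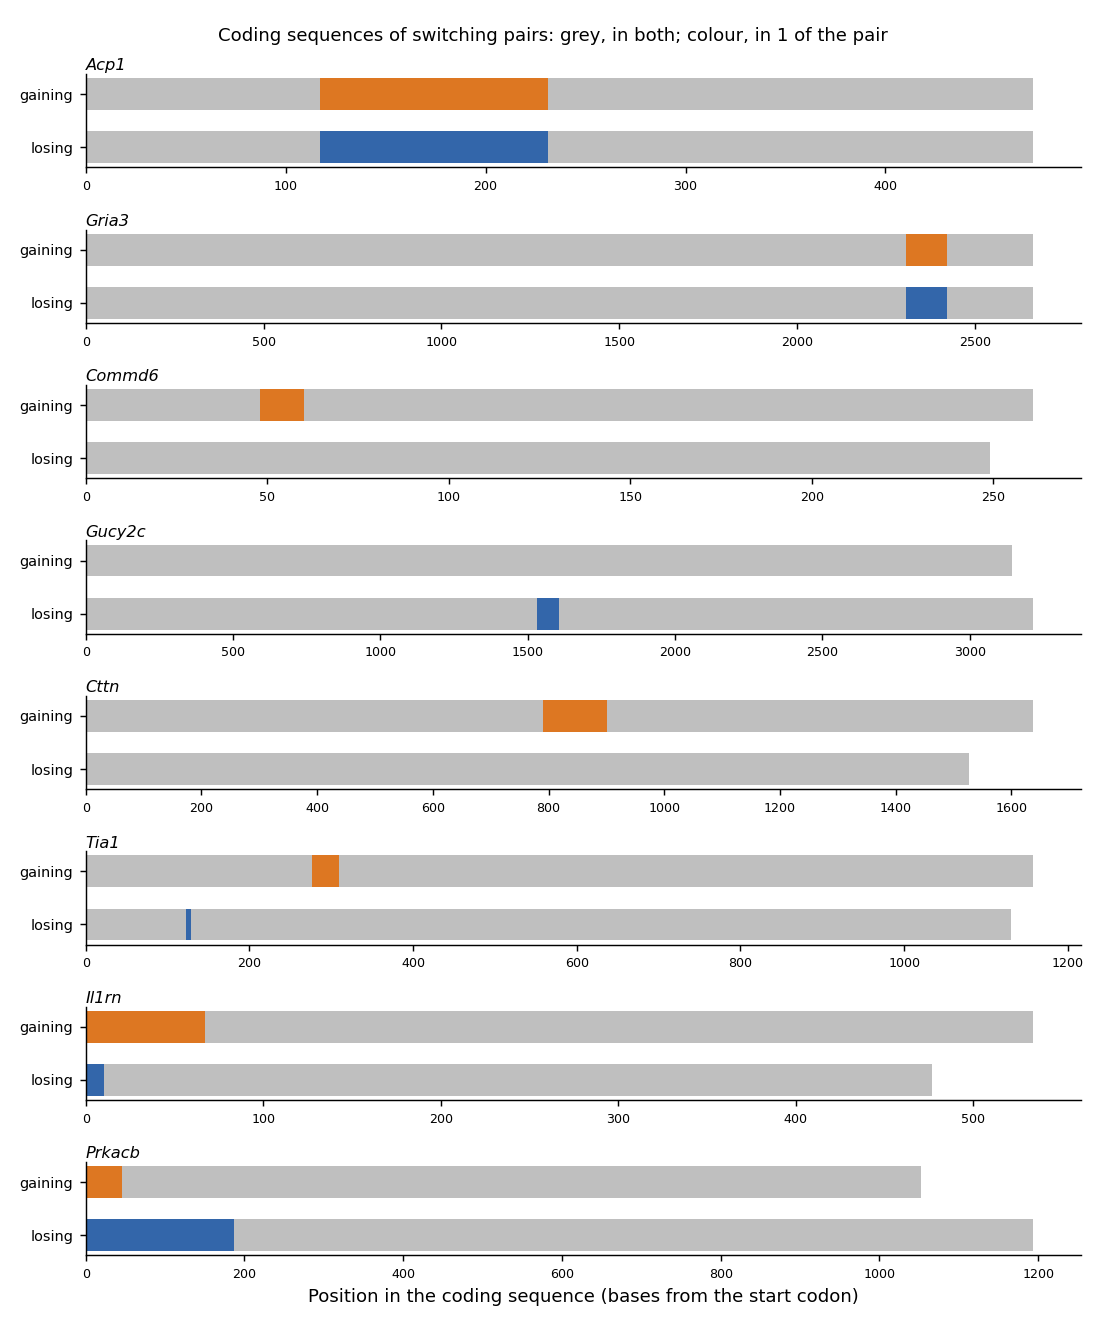
Coding sequences of the gaining and losing isoforms of 8 members, in bases from the start codon. Grey is coding sequence that both isoforms hold, orange is held only by the gaining isoform and blue only by the losing one. Acp1 and Gria3 exchange 1 internal block of equal length, Commd6, Cttn, Gucy2c and Tia1 add or drop internal blocks, and Il1rn and Prkacb differ at the start.

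Proteins that splice or bind RNA were themselves among the members, 8 of the 105 eligible genes on that list (7.62%, against 5.68% of all eligible genes). They were Srsf10, Dhx32, Ddx6, Mettl20, U2af2, Larp4, Tia1 and Celf2, of which Mettl20 is named like the RNA methyltransferases but modifies a mitochondrial protein. Srsf10, a splicing regulator of the SR family, stood at 12.96 and 27.3 FPKM. NM_001080387 was at 0.0276 and 18.8 FPKM (0.213% and 68.9%) and NM_001284195 at 9.25 and 0.0458 FPKM (71.4% and 0.168%), while NM_001284196 held 28.1% and 30.9%. In FPKM the last of these was at 3.64 and 8.43, so its share was similar in a gene that was itself higher. The gaining and losing Srsf10 isoforms differ by 3 bases, printed below, out of a coding sequence of 786 bases in the gaining isoform. Their linked transcripts do not differ elsewhere, so only fragments over this place bear on the exchange. U2af2, the subunit of the U2 auxiliary factor that recognises the polypyrimidine tract before a 3′ splice site, was at 40.1 and 53.4 FPKM. Its NM_133671 was listed at 0 and 15.6 FPKM (0% and 29.2%), and NM_001205231 was at 40.1 and 37.9 FPKM. The losing U2af2 isoform holds 12 coding bases that the gaining one lacks. Capitals mark the bases held by 1 isoform of the pair, shown because each small segment is the whole coding difference.
Srsf10, gaining isoform NM_001080387, chr4:135863523-135863525, plus strand: cagtcctagaaaCAGtagaccgactgg
U2af2, losing isoform NM_001205231, chr7:5075228-5075239, plus strand: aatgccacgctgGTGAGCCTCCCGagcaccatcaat

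Tia1, which regulates splicing and forms stress granules, was at 5.84 and 10.4 FPKM. Its gaining isoform NM_011585, at 50.4% and 76.6%, holds 33 coding bases that NM_001164078, at 29.8% and 15.02%, lacks, and the latter holds 6 bases elsewhere. Ddx6, an RNA helicase of messenger RNA decay and storage, was at 46.8 and 63.7 FPKM, with NM_007841 at 1.96 and 23.7 FPKM and NM_181324 at 33.4 and 29.0 FPKM. Celf2, a splicing and translation regulator, was at 9.56 and 15.5 FPKM. Of its 8 isoforms, NM_001110228 held 8.09% and 28.0% and NM_001110230 held 26.2% and 0.00636%, from starts 196246 bp apart. In Tia1, Ddx6, Celf2, Larp4, U2af2 and Srsf10 the summed level was higher in the library labelled Aire-KO, but past 2-fold only in Srsf10 (log2 ratio 1.07) and Larp4 (1.14). Dhx32, a helicase-like protein, and Mettl20 were lower, at log2 ratios of -1.12 and -1.01. Over all 105 genes of the list the median log2 ratio was 0.47.

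The list of kinases, phosphatases and their partners held 8 members of 110 eligible genes (7.27%). It also caught the guanylate cyclase Gucy2c by its symbol. Beside Acp1 and Gucy2c they were Cdc14b, Ppp1r16b, Prkacb, Mapkap1, Mtm1 and Rps6ka1. Prkacb, a catalytic subunit of cAMP-dependent protein kinase, was at 9.03 and 8.61 FPKM. Its NM_011100 was at 68.5% and 97.9% and NM_001164200 at 29.6% and 2.05%. These start 31544 bp apart, so that 46 coding bases of the gaining and 187 of the losing isoform are not shared. Rps6ka1, a ribosomal S6 kinase of the ERK pathway, was at 21.1 and 10.7 FPKM with NM_009097 at 41.9% and 67.0%. Cdc14b was at 6.67 and 18.3 FPKM, with NM_172587 at 8.84% and 39.9%. Mapkap1, a subunit of the mTORC2 kinase complex, was at 20.2 and 21.4 FPKM, and its pair, NM_177345 at 35.9% and 57.1% and NM_001290625 at 60.5% and 35.1%, encodes 1 protein from different first exons.

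Vesicle and membrane traffic held 9 members of 104 eligible genes (8.65%), the highest share of any functional list at the 25 point limit. At 15 points that rank went to the list of cell death and autophagy, at 25% against 22.1%, and neither share was tested. They were Atg9a, Exoc1, Eps8, Vps13d, Vps54, Mon2, Als2cl, Dennd2d and Dnm2, and none was 2-fold lower or higher as a gene. Atg9a, the lipid scramblase of autophagosome formation, was at 11.97 and 8.42 FPKM, with NM_001288612 at 28.0% and 72.9% and NM_001003917 at 68.9% and 12.6%, which encode the same protein. Exoc1, a subunit of the exocyst that tethers secretory vesicles, was at 13.9 FPKM in WT and within 0.1 FPKM of that in Aire-KO. Its NM_001289771 was at 25.7% and 74.1% and NM_001289770 at 74.3% and 25.9%, a nearly symmetric exchange of isoforms that differ by 45 coding bases. Vps54, of the GARP tethering complex, differed by 36 coding bases, held by the gaining NM_139061 at 26.3% and 58.2%. Mon2, a regulator of Golgi and endosome traffic, held NM_001163024 at 0 and 1.74 FPKM (0% and 15.2%), the isoform with the smallest q-value of any member in the authors' deposited table. Dnm2, the dynamin that cuts vesicles from membranes, was at 58.8 and 57.2 FPKM. Its NM_001253893 was at 0.00124% and 22.4%, and NM_007871, which lacks 12 of its coding bases, was at 45.7% and 20.6%.

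Cytoskeletal genes and their regulators made up 8 members of 111 (7.21%), namely Klc3, Arhgef1, Cttn, Pdlim2, Ank3, Arhgap1, Arhgef2 and Rhobtb1. Cttn, cortactin, which binds and stabilises branched actin, was at 42.4 and 33.9 FPKM. Its NM_007803 was at 22.9 and 29.8 FPKM (54.0% and 87.8%) and NM_001252572 at 19.5 and 4.14 FPKM (45.96% and 12.2%). The gaining isoform holds 111 coding bases that the other lacks, printed below in capitals because they lie in the stretch of cortactin that is made of similar short repeats. Arhgef1, a guanine nucleotide exchange factor, was at 27.3 and 35.8 FPKM, with NM_001130153 at 25.9% and 66.0% and NM_001130152 at 46.2% and 10.1%. Klc3, a kinesin light chain, was at 13.6 and 5.19 FPKM, and its NM_146182 was at 7.16 FPKM and listed at 0. Ank3, ankyrin-G, which anchors membrane proteins to spectrin, has the widest distance between starts, 391310 bp, for NM_170690 at 0.0361% and 18.5% and NM_170687 at 35.8% and 4.15%.
Cttn, gaining isoform NM_007803, chr7:144450978-144451088, minus strand: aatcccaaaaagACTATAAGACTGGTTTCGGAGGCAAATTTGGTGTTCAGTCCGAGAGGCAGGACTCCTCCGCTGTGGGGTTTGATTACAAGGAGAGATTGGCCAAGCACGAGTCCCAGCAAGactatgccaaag

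Regulators of other small GTPases were also among the members, a grouping made after their values were seen. Rap1gap, which switches off the GTPase Rap1, was among the most abundant members, at 77.6 and 139 FPKM. NM_001081155 was at 12.1 and 95.5 FPKM (15.6% and 68.6%), NM_029563 at 56.6 and 29.8 FPKM (72.8% and 21.4%), and NM_001256218 held 11.6% and 10.1%. The 2 main Rap1gap isoforms exchanged rank, start 25855 bp apart and differ at the start of the coding sequence. Plekhg1, Plekhg2 and Dab2ip, which also act on small GTPases, shifted by 31.5, 31.9 and 33.5 points. Plekhg1 was at 15.99 and 19.98 FPKM and its pair encodes 1 protein.

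Il1rn, the antagonist of the interleukin-1 receptor, is known to be made in secreted and intracellular forms from different first exons. It was the member with the highest level in both libraries after Ly6a, at 191 and 177 FPKM on about 17529 and 16217 fragments. NM_001039701 was at 79.7 and 132 FPKM (41.7% and 74.7%), NM_031167 at 93.3 and 21.7 FPKM (48.8% and 12.3%), and NM_001159562 at 18.2 and 23.2 FPKM. The summed level differed little, while the larger part of it lay in a different transcript in each library. The pair starts 8457 bp apart on chromosome 2, and 67 coding bases of the gaining and 10 of the losing isoform are not shared. The 250 bases before each start, from RefSeq on GRCm38.p6, are printed because the pair differs in where it starts, with CG dinucleotides in capitals. There are 4 in the window of the gaining and 1 in that of the losing isoform, against a median of 6 over 32817 such windows. The letters TATAAA, searched on both strands, are in neither window and in 12.4% of all windows.
Il1rn, gaining isoform NM_001039701, chr2:24345041-24345290, plus strand: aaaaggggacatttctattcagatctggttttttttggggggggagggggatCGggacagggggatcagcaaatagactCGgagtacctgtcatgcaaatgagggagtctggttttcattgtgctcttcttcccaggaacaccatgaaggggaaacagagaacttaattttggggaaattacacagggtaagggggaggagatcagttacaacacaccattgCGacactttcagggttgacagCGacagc
Il1rn, losing isoform NM_031167, chr2:24336610-24336859, plus strand: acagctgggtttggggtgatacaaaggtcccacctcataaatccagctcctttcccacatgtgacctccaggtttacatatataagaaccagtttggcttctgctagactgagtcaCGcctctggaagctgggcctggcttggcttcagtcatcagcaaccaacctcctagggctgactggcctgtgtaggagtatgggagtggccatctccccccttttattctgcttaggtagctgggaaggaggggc

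Lif, a cytokine of the interleukin-6 family, was at 8.84 and 5.73 FPKM, with NM_001039537 at 25.5% and 55.8% and NM_008501 at 74.5% and 44.2%. The start codon differs, and 135 coding bases at the start of the losing Lif isoform are not coding in the gaining one. Wnt11, a secreted Wnt ligand, was at 12.2 and 7.52 FPKM. Its NM_009519 was at 0.230% and 36.4% and NM_001285792 at 55.2% and 19.98%, and both encode the same protein. For both Lif and Wnt11 the gene was lower by less than 2-fold.

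Of the 99 eligible genes on the immune list, 6 were members (6.06%), namely Lgals3, Cxcl11, Ly9, Il1rn, Ifitm1 and Ly6a. Lgals3, Ifitm1 and Ly6a were 2-fold lower as genes and Ly9 higher, and the median log2 ratio of the 6 was -0.91 against 0.11 for the list. Ly6a, the surface protein Sca-1, was at 590.4 and 179 FPKM. NM_001271419 was at 276 and 137 FPKM (46.8% and 76.5%) and NM_010738 at 301 and 42.0 FPKM (50.9% and 23.5%), so both were lower, and unequally. The 2 Ifitm1 isoforms, NM_026820 at 18.1 and 4.17 FPKM and NM_001112715 at 54.4 and 3.32 FPKM, start 819 bp apart and encode the same protein. Lgals3 and Il1rn are also made by myeloid cells, whose markers (6 of 8 measured lower, 782.7 and 477.6 FPKM in sum, none at 0 in both libraries) were lower in the library labelled Aire-KO. The part of such cells in these values was not tested.

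The list of transcription and chromatin regulators held 14 members of 232 (6.03%), near the rate of all eligible genes. The list caught Chdh, which is choline dehydrogenase, by its symbol, and left out Jdp2. Zfp821, a zinc finger protein, was at 10.2 and 13.4 FPKM, with NM_001286393 at 14.4% and 58.5%. Phc1, a Polycomb protein, was at 5.91 and 8.26 FPKM, with NM_001271579 at 0.0154% and 47.8% and NM_007905 at 42.4% and 11.5%. Phf23, a reader of methylated histone H3, was at 21.8 and 24.9 FPKM. Its NM_001291126 was at 0.00757% and 27.7%, and NM_030064 at 61.2% and 17.8%. The start codon differs, and 390 coding bases of NM_030064 are not coding in NM_001291126. Tcf7l1, a transcription factor of the Wnt pathway, was at 13.5 and 11.5 FPKM, and its gaining NM_001079822, at 9.65% and 45.3%, holds 42 coding bases that NM_009332 lacks. Nfat5, the osmotic stress transcription factor, was at 9.65 and 9.90 FPKM. NM_018823, at 39.7% and 74.8%, adds 282 coding bases to the start of NM_133957, at 51.4% and 20.9%.

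The list of metabolic and mitochondrial genes left out enzymes such as Hgd, Pemt, Upp1 and Chdh, so its rate is that of a symbol pattern. It held 6 members of 134 (4.48%). Besides Vkorc1l1 and Acot7 they were Txndc11, Pfkm, Dut and Oxr1. Pfkm, the muscle type phosphofructokinase of glycolysis, was at 21.1 and 40.2 FPKM. Its NM_021514 was at 16.8% and 46.2% and NM_001163488 at 32.7% and 6.54%, with the same protein. Dut, which hydrolyses dUTP, was at 13.7 and 25.6 FPKM, with NM_023595 at 63.2% and 89.3%, and 130 coding bases of the losing NM_001159646 are not coding in it. Oxr1, an oxidation resistance protein, exchanged a long and a short form. NM_001130164, with 648 coding bases, was at 20.1% and 45.5%, and NM_001130166, with 2598, was at 20.6% and 3.60%, from starts 383450 bp apart.

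The remaining lists held few members. Ubiquitin and proteasome genes had 4 of 100, Commd6, Rnf185, Rnf128 and Dcun1d2. Rnf128, a ubiquitin ligase known for restraining T cell activation, was at 53.8 and 24.7 FPKM, and its isoforms NM_023270 (33.0 and 22.6 FPKM) and NM_001254761 (20.8 and 2.06 FPKM) start 47304 bp apart. Membrane proteins on the transport list had 5 of 105 (4.76%), all of the Tmem symbol series, with Tmem255a at 5.60 and 6.37 FPKM and its NM_172930 at 47.2% and 94.5%. Chaperones had 2 of 28 (7.14%), Dnajb6 and Dnaja1. Translation genes had 4 of 69 (5.80%), Rpl35a, Pus1, Rps6ka1 and Wdr45, the last of which acts in autophagy. Cell cycle and repair genes had 3 of 49 (6.12%), Fance, Cdc14b and Nipa2, a magnesium transporter. Adhesion genes had 3 of 63 (4.76%), among them Sema4a and Sema6d, and autophagy and cell death genes 1 of 28 (3.57%), Atg9a. In all, 78 of the 142 members were on a list (6.00% of 1299 listed eligible genes), and 64 were on none (5.34% of 1199). The lists thus ranged from 3.57% to 8.65%, around the 5.68% of all eligible genes, and differences between lists were not tested. They are symbol patterns that leave out genes of the same functions, so the rates describe the patterns.

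Several members are best known from other tissues, a grouping made after their values were seen. Tnnt2, cardiac troponin T, was at 41.4 and 22.9 FPKM. Its main isoform NM_011619 held 63.7% and 68.2%, and the exchange was between NM_001130174 at 36.2% and 0.322% and NM_001130175 at 0.0274% and 30.2%. Acpp, prostatic acid phosphatase, was at 43.5 and 15.2 FPKM. NM_207668 (25.1 and 13.03 FPKM) and NM_019807 (18.3 and 2.16 FPKM) of Acpp differ in the last exon and in the stop codon. Dclk1, a kinase of neurons and of intestinal tuft cells, was at 16.5 and 5.21 FPKM, and its NM_001195538 was at 11.6 and 2.61 FPKM while NM_001111053 was at 2.59 and 2.24 FPKM. Gas7, a protein of growing neurites, was at 43.7 and 85.0 FPKM, with NM_008088 at 57.4% and 87.1% and NM_001277079 at 27.0% and 0.0193%. Hhatl, of heart and skeletal muscle, was at 6.17 and 7.64 FPKM, with NR_027967 at 0.00294% and 31.0%. Levels of these genes differed both ways, lower in Tnnt2, Acpp and Dclk1 and higher in Gas7 and Hhatl, and past 2-fold only in Acpp and Dclk1.

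Close to the limit, the members just inside were Sema6d at 25.07 points, Rps6ka1 at 25.12 and Dnm2 at 25.15, and the genes just outside were Ica1 at 24.85, Tmem184b at 24.84 and Ccser1 at 24.82. In the authors' deposited table, which compares the same 2 libraries, 68 of 33295 isoforms (0.204%) were called significant, but none in any of the 2498 eligible genes, so none of the 496 member isoforms. The smallest q-value of a member isoform there was 0.0967, for NM_001163024 of Mon2, and the next gene was Psd3 at 0.174. The authors' deposited table gives 23 member isoforms a p-value under 0.05, the smallest being 0.00025. Isoforms of Acp1, Commd6, Gucy2c and Srsf10, which shifted by 71.3 to 97.8 points, were thus not called by the authors.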

How the data were processed

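Total RNA of sorted cells was made into stranded, polyadenylated RNA libraries and sequenced with paired ends, per the labels' protocols. TopHat2 and Cuffdiff were used with build mm10, per the submitters' processing notes. Versions and annotation are not stated there. Per gene and per isoform, the authors deposited FPKM values, with a p-value and a q-value for each row as the authors' own values. Cuffdiff divides fragments that fit several isoforms by a model, so isoform values share fragments.

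Here 6 isoform rows without an estimate (status HIDATA) were left out, and 52 rows whose 25 symbols had become dates were renamed through their RefSeq accession (GRCm38.p6). For 142 of 142 members the isoform sum equalled the gene table within 1%. Low FPKM values of transcripts of 2000 bases or more were matched to whole fragments. Of 189 and 459 such values, 78.3% and 79.1% lay within 0.1 of a whole multiple of a step fitted to the same values. The bases taken off each length, 120 and 240, were fitted with it, so depth and fragment numbers are approximate. Structures came from GENCODE M21 (GRCm38), with exonic sequences from its transcripts. Where an accession had several linked transcripts, the first by identifier was used. Calculations used Python 3.11.15 with pandas 2.3.3 and numpy 2.4.6, and were tested on simulated shares.

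Markers counted at a mean of 0.5 FPKM or more. The members, function lists (symbol patterns) and rules were chosen with earlier results of these data known. Named genes were the 25 largest shifts, members at 20 FPKM or more in both libraries, members with a non-coding isoform, up to 6 per list, 2-fold changed genes, those at the limit, and those whose sequence is printed. Gria3, Tia1, Celf2, Nfat5, Plekhg1, Plekhg2, Dab2ip, Lif and Wnt11 fall outside that rule and were chosen after their values were seen. Als2cl, Mtm1, Arhgef2 and Rhobtb1 also fall outside it and were named only to complete their lists. With 1 library per genotype, no test was made. Values of 1 member are not reported here.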

Additional observations from a re-analysis of the deposited data

How the results depend on the processing

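The number of genes with a share shift followed the limits chosen. It was 142 as reported, 417 with a minimum of 1 FPKM, 25 with a minimum of 20 FPKM, 922 with no minimum, 437 at 15 points and 38 at 40 points. It was 124 with 0.1 FPKM added to every isoform, all 124 of them members, and 124 with shares of FPKM times transcript length, 119 of them members. It stayed at 142 with other status rows left out, with sums by symbol and locus, and with transcripts of 200 bases or more. With log2 ratios centred on the median of the eligible genes, 5 members were higher as genes in place of 8. The percentage of linked pairs with different first exons was 63.2 at 20 FPKM or more (19 pairs) against 52.7, and that with the same coding sequence 46.4 at 40 points (28 pairs) against 34.8. The cause of these differences was not tested. The other alternatives stayed nearer to the reported values, the widest apart being 21 members lower as genes against 16 (centred) and 61.5% against 51.4% of pairs with a longer coding sequence in the gaining isoform (20 FPKM or more). At 15 points, 10.7% to 25% of the genes on each functional list shifted, against 17.5% of all eligible genes. No paired analysis was possible because the labels carry no replicate numbers and there is 1 library per genotype, which also leaves every share without a measured error. Where isoforms differ by few bases, few fragments bear on the share.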
